A study of Mus musculus with 3 samples.

Results

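The SNAIL, ZEB and TWIST genes are 7 mouse genes, *Snai1*, *Snai2*, *Snai3*, *Zeb1*, *Zeb2*, *Twist1* and *Twist2*, picked by symbol out of the 22698 genes measured, and each of the 7 has a row for every replicate. RNA-seq was carried out on melan-a, an immortalized line of mouse melanocytes with a C57BL/6J background that is labelled as coming from Ink4a-ARF-/- mice. The cells received no treatment, and they were kept in RPMI medium with 10% fetal bovine serum, 200 nM of the phorbol ester 12-O-tetradecanoylphorbol 13-acetate and 200 pM cholera toxin. There are 3 bioreplicates, labelled 1, 3 and 4, of this single line and condition, so the comparisons here are between genes within a library and not between groups of samples, and the spread is that between cultures of 1 line.

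All 7 genes encode DNA-binding proteins of families with members that can drive an epithelial-mesenchymal transition (EMT), in which cells lose junctions and gain motility. SNAIL and ZEB proteins carry zinc fingers, bind E-box sequences and mostly repress transcription, with the gene for E-cadherin as the classical target, and TWIST proteins are basic helix-loop-helix factors that act as dimers. Melanocytes arise from the neural crest, which itself leaves the neural tube by an EMT. Loss of SNAI2 is a cause of piebaldism and Waardenburg syndrome, and ZEB2 is needed for melanocyte differentiation. SNAI2 and ZEB2 are known from normal melanocytes, whereas ZEB1 and TWIST1 are known from the switch that accompanies melanoma progression.

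The values are FPKM, read numbers divided by gene length and by a library size that the authors adjusted with TMM (a trimmed mean of log ratios between libraries), so that genes can be compared per length within a replicate. From the steps that whole reads leave in the values of short genes, the adjusted library sizes of replicates 1, 3 and 4 came to 53900000, 47000000 and 66300000 reads. Values given in threes follow this order of replicates. Spearman's rho between replicates lay between 0.979 and 0.982 across genes, which are not independent replicates. Melanocyte markers were high. *Tyrp1* and *Dct*, which encode melanin-synthesizing enzymes, had 3144 ± 434 and 1412 ± 96 FPKM (SD, n = 3), and *Mlana*, a melanosome protein gene, had 578 ± 52 FPKM. Of the 10 markers, 9 reached 1 FPKM in every replicate (90%, against 44.1% of all genes). *Kit*, the gene for the stem cell factor receptor, was the lowest at 0.68 ± 0.095 FPKM. *Cdkn2a*, the locus that the label names as lost, had 19.24, 16.49 and 24.32 FPKM in replicates 1, 3 and 4. Which exons are deleted is not given in the labels, so this level does not check the label.

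Of the 7 genes, 2 reached 1 FPKM in every replicate, *Snai2* and *Zeb2*, a minimum that 44.1% of all genes reached. With 7 genes the count is too small to be set apart from that share. *Zeb2* was the highest at 18.7 ± 4.3 FPKM and *Snai2* followed at 15.4 ± 3.4 FPKM (SD, n = 3). *Snai1* lay at 0.977 ± 0.097 FPKM, *Twist2* at 0.0933 ± 0.021 and *Snai3* at 0.0633 ± 0.012, and *Zeb1* and *Twist1* were listed at 0 in all 3 replicates. Of all genes, 31.4% were listed at 0 in all 3 replicates. *Zeb2* ranked 3443rd and *Snai2* 4008th of 22698 genes by mean FPKM, against rank 10255 for *Snai1*. The expressed set held 1 member of the SNAIL family, 1 of the ZEB family and none of the TWIST family at this minimum. In such bulk samples fewer cells that express a gene and less RNA per cell cannot be told apart. For the count, *Snai1* stood at the boundary. It joined the other two when the minimum was 0.5 FPKM, which 47% of all genes reached, and also without replicate 1.

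**Figure D1:**
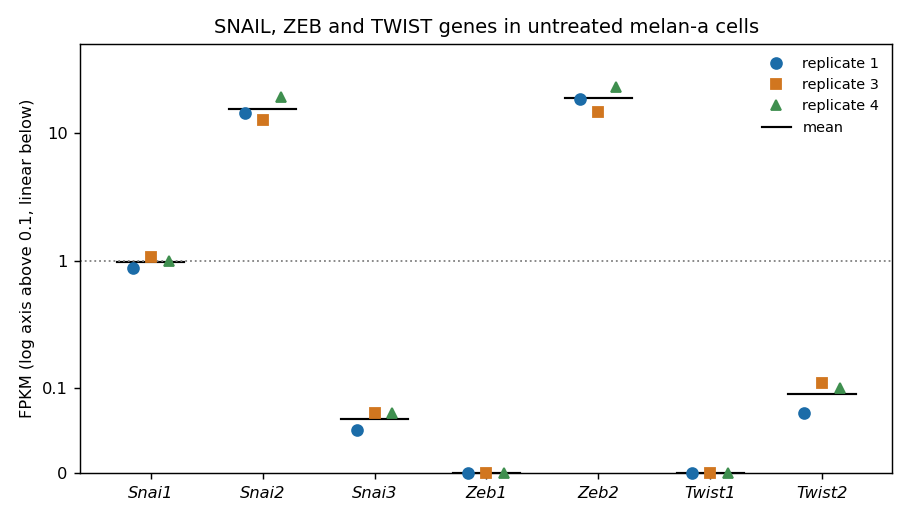
FPKM of each SNAIL, ZEB and TWIST gene in replicates 1, 3 and 4 (points) with the mean (bar), on an axis that is logarithmic above 0.1 and linear below, with a dotted line at 1 FPKM. *Snai2* and *Zeb2* sit between 12.65 and 23.11 FPKM, *Snai1* sits around 1 FPKM, *Snai3* and *Twist2* lie near 0.1 FPKM or below, and *Zeb1* and *Twist1* lie at 0.

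In the SNAIL family, *Snai2* (ENSMUSG00000022676), which encodes the protein also called SLUG, was the paralog in use. It had 14.3, 12.65 and 19.24 FPKM, or about 1565, 1208 and 2591 reads. *Snai1* (ENSMUSG00000042821), which encodes the founding member of the vertebrate family, had 0.87, 1.06 and 1 FPKM, or about 76, 81 and 107 reads. *Snai3* (ENSMUSG00000006587), the least studied paralog, had 0.05, 0.07 and 0.07 FPKM from about 4, 5 and 7 reads, just above the 0.035, 0.04 and 0.028 FPKM that 3 reads give. The ranges of the 3 paralogs did not overlap. *Snai2* exceeded *Snai1* 16.4-fold, 11.9-fold and 19.2-fold, a mean ratio of 15.9 ± 3.7 (SD, n = 3). *Snai1* in turn exceeded *Snai3* by a mean ratio of 15.6 ± 1.6. *Snai2* took 94%, 91.8% and 94.7% of the summed FPKM of the family, *Snai1* 5.72%, 7.69% and 4.92%, and *Snai3* at most 0.508%. The sum itself was 15.22, 13.78 and 20.31 FPKM.

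These 3 genes each have a single annotated transcript in 3 exons. Their mm9 positions are chr16:14705945-14709488 (plus strand) for *Snai2*, chr2:167363695-167368314 (plus strand) for *Snai1* and chr8:124978106-124984592 (minus strand) for *Snai3*. Their joined exons measure 2031, 1621 and 1589 bp. No exon of another gene overlaps them on either strand, and 96%, 96.3% and 100% of their exonic 31-base words occur at a single place in the genome. The SNAIL paralogs share 0 of these words with each other, and *Snai2* shares 2 with each ZEB gene.

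The ZEB family showed a wider separation. *Zeb2* (ENSMUSG00000026872) had 18.44, 14.55 and 23.11 FPKM, or about 15275, 10509 and 23547 reads. *Zeb1* (ENSMUSG00000024238) was listed at 0 in every replicate, so no ratio is given, and *Zeb2* was higher in 3 of 3 replicates. The joined exons of *Zeb1* are 9712 bp long. With values rounded to 2 decimals, a 0 for this gene means fewer than 2.6, 2.3 and 3.2 reads. A count of 0 therefore cannot be told from 1 or 2 reads, nor from 3 reads in replicate 4. On *Zeb1*, 3 reads would come to 0.0057, 0.0066 and 0.0047 FPKM. *Zeb1* is found on chr18:5591858-5775465 (mm9, plus strand), with 8 annotated transcripts. Of its exonic 31-base words 99% occur at a single place in the genome and no exon of another annotated gene overlaps it. The 34 genes for general proteasome subunits, a check chosen after seeing the data because every cell uses them, all reached 1 FPKM in every replicate. Whether reads were lost at *Zeb1* alone was not tested.

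*Zeb2* is found on chr2:44839154-44972915 (mm9, minus strand) and has 11 annotated transcripts, whose joined exons measure 15368 bp against 9113 bp for its longest coding transcript. How the authors set gene length is not given in the sources used here. For 16 to 17 short genes with several transcripts, the reads recovered with joined exons lay on average 0.083 to 0.14 reads from a whole number, and with the longest transcript 0.157 to 0.224 reads. With the longest coding transcript of *Zeb2* as the length, its level would be 31.5 ± 7.2 FPKM. Exons of an annotated gene on the opposite strand, *Gm13476*, cover 458 bp of its exons (2.98%), and 5 bp are shared with a gene on the same strand. The kit keeps the strand of the RNA, but the strand setting of the counting is not stated in the sources used here.

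The TWIST family was at or near 0. *Twist2* (ENSMUSG00000007805) had 0.07, 0.11 and 0.1 FPKM, from about 5, 7 and 9 reads, above the 0.042, 0.048 and 0.034 FPKM of 3 reads. *Twist1* (ENSMUSG00000035799) was listed at 0 in all 3 replicates. For its 1616 bp a 0 corresponds to fewer than 0.44, 0.38 and 0.54 reads, in other words to no counted read, and the 3 reads that a count of 0 allows, for counting error only, would come to 0.034, 0.039 and 0.028 FPKM. The few reads on *Twist2* are too few to rank it against *Snai3*, since the replicate ranges of the pair met at 0.07 FPKM, although *Twist2* was higher in 3 of 3 replicates with a mean ratio of 1.47 ± 0.092. *Twist1* is found on chr12:34642536-34644682 and *Twist2* on chr1:93698038-93744605 (mm9, both plus strand), each with a single transcript in 2 exons. For both, 100% of the exonic 31-base words are found at a single place in the genome, and none is shared between them.

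Across families, the order of mean levels was *Zeb2*, *Snai2*, *Snai1*, *Twist2*, *Snai3* and then *Zeb1* and *Twist1* at 0. The replicate ranges of *Zeb2* and *Snai2* overlapped, from 14.55 to 23.11 and from 12.65 to 19.24 FPKM. Within a library, however, *Zeb2* was higher in 3 of 3 replicates, by 1.29, 1.15 and 1.2 times, a mean ratio of 1.21 ± 0.07 (SD, n = 3). This ratio rests on the length of *Zeb2*, and was 2.05 ± 0.12 with the longest coding transcript. *Snai1* lay above *Twist2* without overlap, by a mean ratio of 10.7 ± 1.5. For the contrast known from the melanocyte lineage, both *Snai2* and *Zeb2* were above both *Zeb1* and *Twist1* in 3 of 3 replicates. A two-sided exact sign-flip permutation test was run on 6 comparisons, the 5 pairs within families and this contrast, on log2(FPKM + 0.1). Each exact test gave p = 0.25 before and after Benjamini-Hochberg adjustment, with 3 of 3 replicates in the same direction, and 0.25 is the smallest value that 3 replicates allow.

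The 250 bases before and 50 after a transcription start are shown for 3 of these genes, to set an expressed paralog (*Zeb2*) beside a weakly expressed one (*Snai1*) and one listed at 0 (*Twist1*). RefSeq sequences on GRCm38.p6 were matched for 4 of the 7 genes, those 3 and *Twist2*. Capitals mark, on either strand, E-boxes (CANNTG) and the motif GCCNNNGGC, here called the TFAP2 motif. CANNTG is the general site of all 3 families, and CACCTG is the form favoured by SNAIL and ZEB proteins. GCCNNNGGC adds a final C to GCCNNNGG, the consensus that the study gives for TFAP2A, the factor that it followed. Matches to that shorter site alone were neither marked nor counted.
Snai1, chr2:167537945-167538244, plus strand: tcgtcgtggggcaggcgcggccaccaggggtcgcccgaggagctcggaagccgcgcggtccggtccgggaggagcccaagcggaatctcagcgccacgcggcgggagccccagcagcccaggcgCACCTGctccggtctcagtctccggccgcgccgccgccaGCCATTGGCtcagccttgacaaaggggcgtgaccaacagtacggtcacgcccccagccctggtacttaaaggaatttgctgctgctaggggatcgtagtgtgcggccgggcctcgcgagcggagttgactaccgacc
Zeb2, chr2:45113230-45113529, minus strand, 1 of its 4 listed starts: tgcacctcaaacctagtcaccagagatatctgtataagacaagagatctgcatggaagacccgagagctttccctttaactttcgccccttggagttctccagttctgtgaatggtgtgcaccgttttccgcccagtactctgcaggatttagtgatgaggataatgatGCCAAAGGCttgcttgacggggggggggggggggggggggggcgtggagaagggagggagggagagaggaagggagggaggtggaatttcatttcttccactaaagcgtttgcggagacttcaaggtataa
Twist1, chr12:33957421-33957720, plus strand: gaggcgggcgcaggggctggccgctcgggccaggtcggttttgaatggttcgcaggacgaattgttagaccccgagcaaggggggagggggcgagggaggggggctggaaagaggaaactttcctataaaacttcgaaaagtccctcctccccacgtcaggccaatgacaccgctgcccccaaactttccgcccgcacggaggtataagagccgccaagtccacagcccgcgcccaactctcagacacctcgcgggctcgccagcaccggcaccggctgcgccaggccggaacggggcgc

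The *Snai1* window held 1 E-box, a CACCTG that begins at position -126 from the start, and 1 TFAP2 motif at position -87. An E-box of any kind is found in 72.3% and CACCTG in 20.2% of the 32851 windows of this length, and the TFAP2 motif in 16.6%. None of the 4 *Zeb2* windows held an E-box, and the overlapping windows of 2 of its starts held the same TFAP2 motif, at position -81 from the start shown. The *Twist1* window held neither motif and that of *Twist2* held a TFAP2 motif at position -80. The windows of *Snai1*, *Twist1* and *Twist2* were GC-rich, with 34, 27 and 25 CG dinucleotides against a median of 7 over all windows, and the 4 *Zeb2* windows held between 8 and 19, with 8 in the one shown. A match of letters is a description of the window and no evidence of binding.

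*Snai2* and *Zeb2* varied together between the replicates. Both were highest in replicate 4 and lowest in replicate 3, an order shown by 37.2% of the 10011 genes at 1 FPKM or more in every replicate. Their coefficients of variation were 22.3% and 22.9%, against a median of 11.4% over those genes. The joined exons of *Snai2* are 42.6% GC and those of *Zeb2* 41.7%, below the median of 50.1%. The log2 ratio of replicate 4 to replicate 3 was 0.6 for *Snai2* and 0.67 for *Zeb2*, and genes of 40 to 45% GC had a median of 0.44, with quartiles at 0.22 and 0.68. For GC-rich genes, the sign was the opposite, with a median of -0.39 for genes of 55 to 60% GC. *Snai1*, at 59.8% GC, had a log2 ratio of -0.08, above the upper quartile of -0.22 in that class.

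When a smooth trend against GC content was taken out of each replicate, *Snai2* had 14.2, 14.8 and 16.5 and *Zeb2* 18.3, 17.3 and 19.6 FPKM in replicates 1, 3 and 4. The coefficients of variation fell to 7.98% and 6.09%, next to a median of 7.29% over all genes at 1 FPKM or more. *Snai1* went the other way, from 9.94% to 20.1%, because its value in replicate 4 rose to 1.21 FPKM. The ratio of *Zeb2* to *Snai2*, 2 genes of like GC content, was 1.21 ± 0.064 after the correction. The trend was taken relative to each gene's mean over the replicates, so the correction could hardly move this mean ratio. A bias by GC content shared by all replicates was not tested. What made the libraries differ by GC content was not tested.

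**Figure D2:**
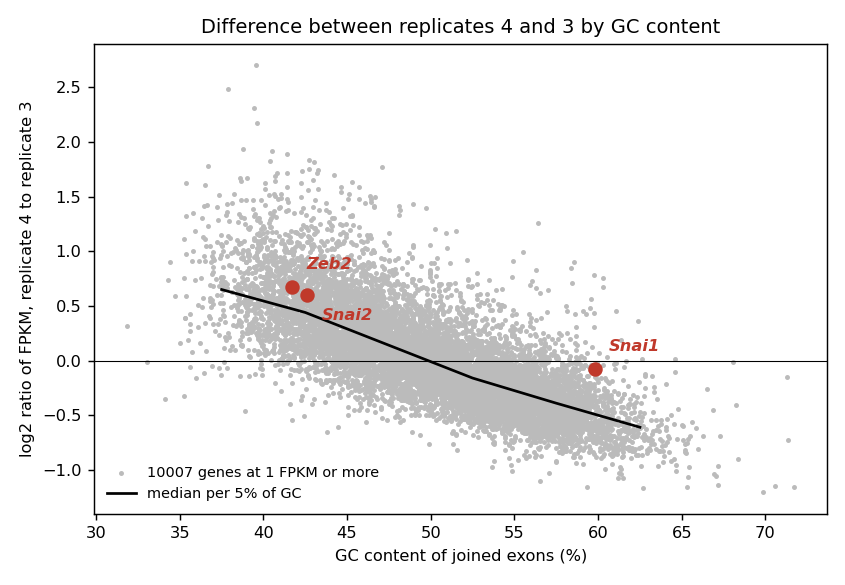
Log2 ratio of FPKM in replicate 4 to replicate 3 against the GC content of joined exons (%), for the 10007 genes at 1 FPKM or more in every replicate with a known GC content (grey) and for *Snai1*, *Snai2* and *Zeb2* (red). The line joins the medians of classes of 5% GC and falls from 0.65 to -0.61, with *Snai2* and *Zeb2* at 0.6 and 0.67 among the genes of low GC content.

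With no second condition, likeness to other genes was measured as the Euclidean distance of log2(FPKM + 1) over the 3 replicates, among 102 genes in lists of EMT and marker genes. It reflects level first and replicate pattern second. The nearest to *Zeb2* were *Hdac2*, a histone deacetylase gene, at a distance of 0.39 and *Mitf*, the gene for the central melanocyte transcription factor, at 0.41. *Mitf* had 22.27, 17.4 and 26.77 FPKM in replicates 1, 3 and 4, the same order of replicates as *Zeb2*. That order, highest in replicate 4 and lowest in replicate 3, was shown by 37.2% of the genes at 1 FPKM or more in every replicate. The nearest to *Snai2* were *Gsk3b* (15.74, 13.76 and 17.8 FPKM) at 0.2 and *Ezh2* (13.7, 10.75 and 18.69 FPKM) at 0.23. The neighbours of *Snai1* were the smooth muscle genes *Acta2* and *Tagln* (0.943 and 1.1 FPKM), those of *Twist2* were *Pdgfra* and *Col3a1* (0.0767 and 0.107 FPKM), and those of *Snai3* were *Rab25* and *Krt19* (0.0567 and 0.05 FPKM).

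Genes for a chosen list of proteins through which SNAIL and ZEB factors repress were all present at the RNA level. SNAIL proteins recruit the demethylase KDM1A with RCOR1 through an N-terminal SNAG domain, and ZEB proteins recruit CtBP. All 13 genes of this list reached 1 FPKM in every replicate, with a median of 12.5 FPKM, against 44.1% and a median of 0.277 FPKM over all genes. *Ctbp1* was the highest at 68.2 ± 11 FPKM (SD, n = 3), followed by *Ehmt2*, a histone H3 lysine methyltransferase gene, at 39.1 ± 8.9 and *Hdac1* at 27.2 ± 0.59. *Ctbp2* had 9.79 ± 0.44 FPKM, *Kdm1a* 12.5 ± 0.97 and *Rcor1* 7.81 ± 0.7. *Rcor2*, an RCOR1 paralog, was the lowest at 2.83 ± 0.52 FPKM. The *Ctbp1* values of 69.28, 78.55 and 56.81 FPKM ran opposite to those of *Zeb2*, with the highest value in replicate 3 and the lowest in replicate 4. Over the genes at 1 FPKM or more, the log2 ratio of replicate 4 to replicate 3 fell with GC content (Spearman's rho -0.78). Whether the order of *Ctbp1* follows from this trend was not tested.

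Genes for E proteins and ID proteins were mostly expressed, while the TWIST genes were at or near 0. E proteins pair with TWIST, and ID proteins, which lack the basic region, sequester them. Of 7 such genes, 6 reached 1 FPKM in every replicate (85.7%, against 44.1% of all genes). Their median was 28 FPKM, against 0.277 FPKM over all genes. *Id3* and *Id2* were the highest with 88.4 ± 4.8 and 80.7 ± 10 FPKM, ahead of the E protein gene *Tcf12* at 54.7 ± 9.5 FPKM, and *Id4* was the lowest at 0.387 ± 0.11. All 7 genes for the turnover of these factors also passed 1 FPKM in every replicate (100%, against the same 44.1%), with a median of 5.65 FPKM. They include *Gsk3b*, the kinase that marks SNAI1 for destruction, at 15.8 ± 2 FPKM, and the F-box genes *Fbxl14* and *Fbxo11* at 11.1 ± 2.3 and 10.7 ± 2.1 FPKM, and *Fbxo45* was the lowest at 2.68 ± 0.31 FPKM.

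Of 9 other transcription factors linked to EMT, 2 reached 1 FPKM in every replicate (22.2%, against 44.1% of all genes). These were *Sox4* at 29.5 ± 2.9 FPKM and *Ets1* at 25.6 ± 2.2. *Sox9*, a neural crest and glial factor gene, came next at 0.157 ± 0.0058 FPKM, and the homeobox gene *Gsc* was listed at 0 in each replicate. The *Scrt1* and *Scrt2* genes, which encode the Scratch relatives of SNAIL in neurons, had at most 0.01 FPKM. Among these 16 genes, *Snai2*, *Zeb2*, *Sox4* and *Ets1* were at 5 FPKM or more in every replicate, a minimum that 30.8% of all genes reached. With 16 genes the count is too small to be set apart from that share.

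Genes of the epithelial state are the classical targets of repression. Among 20 junction and keratin genes, 2 reached 1 FPKM in every replicate (10%, against 44.1% of all genes) and 17 had a mean below 0.1 FPKM, where 46.4% of all genes lay. Their median was 0.01 FPKM, against 0.277 FPKM over all genes. *Cdh1*, which encodes E-cadherin, had 0.03, 0.05 and 0.05 FPKM. The 2 genes above the minimum were *Llgl2*, a cell polarity gene, with 3.07, 3.41 and 2.3 FPKM and *St14*, a membrane protease gene, with 2.86, 3.38 and 2.03 FPKM. *Tjp3*, a tight junction gene, came next at 0.183 ± 0.067 FPKM. *Cldn1*, *Cldn3*, *Cldn4* and *Krt8* were listed at 0 in every replicate, as were 31.4% of all genes. None of the 6 regulators of the epithelial state reached 1 FPKM, and each had a mean below 0.1 FPKM. *Ovol2* had 0.01, 0.06 and 0.02 FPKM and *Esrp2* 0.03, 0.04 and 0.01, while *Elf3* had 0.01 FPKM in replicate 4 and 0 in the others.

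Genes of the mesenchymal state spanned a wide range. Of 14, 9 reached 1 FPKM in every replicate (64.3%, against 44.1% of all genes), with a median of 22.2 FPKM. *Sparc*, a matricellular protein gene, had 3002 ± 90 FPKM, *Vim*, the gene for vimentin, 1865 ± 102, and *Fn1*, for fibronectin, 694 ± 31 (SD, n = 3). *Cdh2*, which encodes N-cadherin, had 111.21, 107.73 and 115.96 FPKM, far above the values of *Cdh1*. At the other end, *Cdh11*, a mesenchymal cadherin gene, had 0.06, 0.01 and 0.06 FPKM, and *Col3a1* had 0.107 ± 0.021 FPKM.

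**Figure D3:**
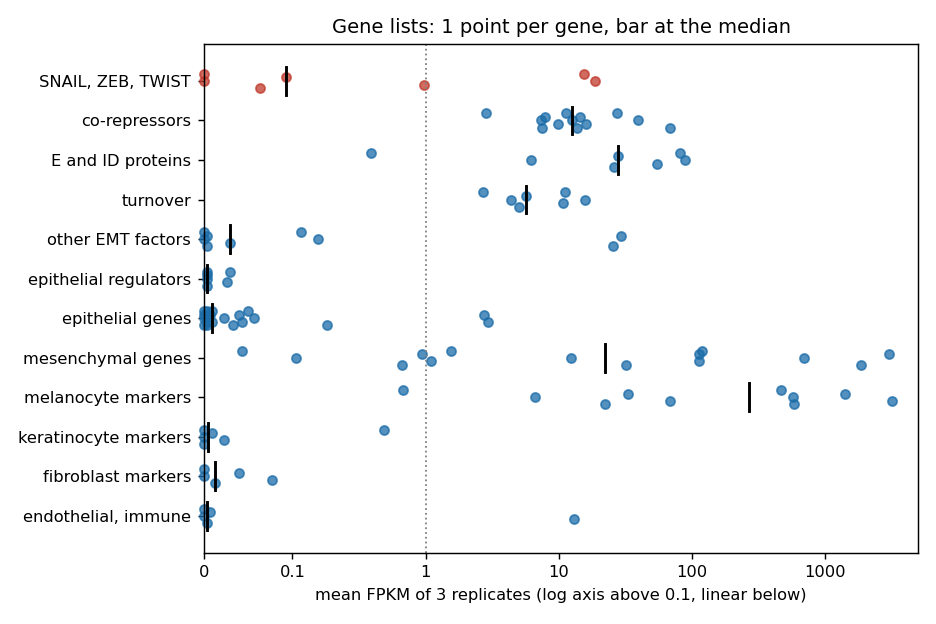
Mean FPKM over 3 replicates for each gene (point) of the SNAIL, ZEB and TWIST families and of 11 lists, on an axis that is logarithmic above 0.1 and linear below, with the median of each list (bar) and a dotted line at 1 FPKM. Co-repressors, E and ID proteins and melanocyte markers lie mostly to the right of the line, and epithelial genes and markers of other cell types mostly to its left.

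The markers of other skin and blood cells were measured beside these values, since fibroblasts express the TWIST genes and *Zeb1*. Of 5 fibroblast markers none reached 1 FPKM, which 44.1% of all genes did in every replicate. Their summed level was 0.08 to 0.19 FPKM across replicates. *Pdgfra* had 0.06, 0.06 and 0.11 FPKM, *Col1a2* 0.04 ± 0.017, *Dcn* 0.0133 ± 0.015, and *Dpt* and *Lum* were listed at 0. Genes of the mesenchymal list were not among these markers. There, *Col1a1* had 1.51, 1.77 and 1.33 FPKM and *S100a4* 112 ± 1.4, while *Col3a1* had 0.107 ± 0.021. Of 6 keratinocyte markers none reached 1 FPKM, against the same 44.1%. Their summed level was 0.36 to 0.7 FPKM, most of it from *Krt10* at 0.49 ± 0.19. *Krt5* had 0.0233 ± 0.021 FPKM, *Krt14* was above 0 in replicate 3 alone (0.03 FPKM), and *Krt1*, *Trp63* and *Ivl* were listed at 0. Of 5 endothelial and immune markers, *Lyz2*, a lysozyme gene, had 12.9 ± 0.49 FPKM and accounted for nearly all of the 12.5 to 13.4 FPKM of the list, whereas *Ptprc* and *Cd3e* were listed at 0, *Pecam1* had at most 0.01 FPKM and *Cdh5* had 0.01 FPKM in replicate 1 only.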

How the data were processed

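Untreated melan-a cells were profiled in 3 replicates by stranded mRNA sequencing on an Illumina platform. Per the methods and the submitters' processing notes, the authors trimmed 10 bases from each read, aligned to mm9 with STAR 2.3.0e, removed rRNA reads and counted on Ensembl release 67 with HTSeq 0.5.3p3. The authors deposited FPKM values with TMM-adjusted library sizes, given to 2 decimals, and edgeR is listed among their tools. These are not counts, so no count model was used.

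The members and gene lists were chosen with earlier results of these data known. Symbols and gene models came from an annotation of Ensembl release 65 on the same build, with 22324 of the 22698 genes matched. *Ajuba* was matched by its older symbol, and of several identifiers for 1 symbol the longest gene was used. Library size was sought in a range of 30000000 to 90000000 reads, as the value at which 51 to 64 single-transcript genes of at most 400 bp came nearest to whole reads (mean distance 0.036 to 0.051 reads), and read numbers follow from it. On simulated data, 3 of 3 planted library sizes were recovered within 2 percent, with 8762 genes.

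Log2 ratios used a pseudocount of 0.1, which understates differences of low genes. GC trends were fitted by lowess over genes at 1 FPKM or more, with a share of 0.3 of the genes per local fit. A gene at 3 reads was taken as the smallest measurable. Named genes were the 7 factors, the 3 highest and the lowest of each list, *Cdh1*, *Cdh2*, *Vim*, *Ctbp1*, *Ctbp2*, *Mitf*, *Cdkn2a* and the 2 nearest list genes of each detected factor. Other list genes in the text were named after their values were seen. Computation used statsmodels 0.14.6 and scipy 1.17.1 with pandas 2.3.3 and numpy 2.4.6 in Python 3.11.15, and plots used matplotlib 3.10.9.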

Additional observations from a re-analysis of the deposited data

How the results depend on the processing

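The direction of each of the 6 log2 ratios was the same under every alternative run, but most alternatives could not have reversed it. In the ratios with *Zeb1* or *Twist1*, a side was 0 in every replicate and stayed so. The SNAIL pairs had the same order in every replicate, which pseudocounts, rescaling, medians and leaving out a replicate keep. The size of the ratios depended on the pseudocount and the scale. With a pseudocount of 0.01 the ratio of *Snai2* to *Snai3* was 7.7 in place of 6.55, of *Snai1* to *Snai3* 3.76 in place of 2.72, of *Zeb2* to *Zeb1* 10.84 in place of 7.53, of *Twist1* to *Twist2* -3.35 in place of -0.95, and of *Snai2* and *Zeb2* to *Zeb1* and *Twist1* 10.71 in place of 7.39. With a pseudocount of 1 these were 3.93, 0.89, 4.28, -0.13 and 4.15, and that of *Snai2* to *Snai1* was 3.03 in place of 3.83. Rescaled so that each replicate summed to 1000000, the first 5 were 7.24, 3.33, 8.93, -1.78 and 8.79. Because *Zeb1* and *Twist1* were listed at 0, the ratios that include them are set by the pseudocount and are no estimate of a fold. With the longest coding transcript as length, *Zeb2* to *Zeb1* gave 8.28 and the contrast of 4 genes 7.77. Medians and leaving out any replicate kept these 6 ratios within 1 SD of the value over all 3. GC-corrected values did so too, but the correction is taken relative to each gene's mean over the replicates. It could therefore hardly move a mean ratio, and a GC bias shared by all 3 libraries was not tested.

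The number of factors at 1 FPKM or more was 2. It was 3 with a minimum of 0.5 FPKM (reached by 47% of all genes), without replicate 1 or after rescaling (48% of all genes). The levels of the 5 detected factors moved by more than 1 SD under rescaling, which changes the unit, and that of *Zeb2* also with the longest coding transcript as length (31.5 FPKM). The ratio of *Zeb2* to *Snai2* was tested under alternatives chosen after seeing the data, and moved to 2.05 with the longest coding transcript. Depth limits *Snai3* and *Twist2*, at 4 to 9 reads per replicate. The ratios were taken within each replicate, and with a single group no replicate block between groups could be fitted.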
